A study of Rattus norvegicus with 4 samples.

Results

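The genes of the cytosolic ribosomal proteins were taken from the deposited table by symbol. These were Rpl or Rps followed by a digit, together with Rplp0, Rplp1, Rplp2 and Rpsa, and without the S6 kinase genes and the rows named as pseudogenes. Of 31457 rows, 106 matched, and the 81 that were not at 0 throughout are described here. They are 48 genes of the large 60S subunit, 32 of the small 40S subunit, and Rps19bp1, which is named for binding a ribosomal protein. Main copies account for 72 of them and second copies, such as Rpl22l1 beside Rpl22, for 8. The other 25 matching symbols were listed at 0 in every library. Of these, 20 were second copies and 5 were main copies, namely Rpl8, Rpl35a, Rpl39, Rps14 and Rps27a. Cells of every type use these 5 proteins, so their listed 0 is not read as absence of the transcript. A row described as a ubiquitin and S27a-like gene (gene ID 100910768) did hold values, at 0.41 in the miR-27b, 0 in the siRNC, 0.39 in the saline and -0.36 in the naive library. It was noticed after its values were seen.

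The data are RNA sequencing of poly(A)-selected transcripts from livers of Lewis rats of the allotype RT1L, with 1 library for each of 4 groups. The miR-27b liver came from a rat that had undergone partial hepatectomy, in which surgeons remove some lobes and the remnant regrows, and had received cells labelled ASCs-miR27b through a vein. The siRNC liver came from a hepatectomised rat given ASCs-siRNC by the same route, the saline liver from a hepatectomised rat given saline, and the naive liver from a naive control. The labels do not spell out ASCs or siRNC, which are read here as adipose-derived stem cells and a control. The sources used here do not give age, sex, the time between surgery and collection, or the origin of the cells. Surgery separates the naive liver from the other 3, and those 3 also all had an injection, so that the effects of surgery and of injection cannot be told apart. With 1 library per group there is no replicate check, so every statement below is a description of these 4 libraries and none of them is tested. The 6 comparisons share libraries, so a gene displaced in 1 library shows in 3 of them.

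Ribosomal proteins are assembled with ribosomal RNA in the nucleolus into the 2 subunits, and the large one carries a stalk that recruits the elongation factors. In mammals most of their mRNAs begin with a short run of pyrimidines, the 5′ terminal oligopyrimidine (TOP) motif, through which mTORC1 and LARP1 control their translation more than their abundance. After partial hepatectomy hepatocytes grow and re-enter the cell cycle, and ribosome production is part of that growth.

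The motif stands at the start of transcription, so the start sites of the members on which the descriptions below turn are shown, some with it and some without. Each line gives 30 bases in transcript direction, 10 before and 20 from the annotated start in RefSeq on GRCr8, with the longest pyrimidine run in capitals. The deposited table was made on another build, rn5. Rplp0 lies at chr12:46718371-46718400 on the minus strand, Rps3a at chr2:173827023-173827052 on the minus strand, Rpl10a at chr20:6390523-6390552 on the plus strand and Rpl3 at chr7:113507971-113508000 on the minus strand. Rpl22 lies at chr5:168117951-168117980, Rpl22l1 at chr2:113683186-113683215, Rpl9 at chr14:43247580-43247609, Rps2 at chr10:14251838-14251867 and Rps23 at chr2:23814507-23814536, all on the plus strand.
Rplp0: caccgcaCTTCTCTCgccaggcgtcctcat
Rps3a: gtacttccgCCCTTTTggctctcagagcgg
Rpl10a: cttctgCCTTCTTTTCCggttcccgcagcc
Rpl3: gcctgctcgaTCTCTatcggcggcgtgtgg
Rpl22: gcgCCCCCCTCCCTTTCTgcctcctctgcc
Rpl22l1: gtggatatccggTTCCgagttgcgcagcgc
Rpl9: aggacgTTCTCTCTTTgccccatctactgc
Rps2: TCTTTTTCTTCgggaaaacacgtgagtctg
Rps23: ccttcctgCCTCTCTTCTCTCTTTCTCTCg

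A start-site entry was found for 61 of the 81 members and not for the other 20. A C at the annotated start followed by at least 4 pyrimidines (C or T) stood in 19 of them, 31.1%, against 2.6% of all 27457 entries in the table. A pyrimidine run of at least 7 bases within the 30 bases was present in 38 members, 62.3%, against 16.9% of all entries. In the 300 bases around the start, CCGGAA on either strand, the core of sites for ETS family factors, was found in 30 members, 49.2%, against 15.8% of all entries. ATGGCG on either strand was found in 20 members, 32.8%, against 10.6%. In the windows shown, Rpl22 has a long pyrimidine run and its second copy Rpl22l1 a short one of 4 bases. Rps23, whose value differed little between libraries, has the longest run of those printed, with 21 bases. These matches are letters in a window, and annotated starts may lie some bases off the true ones.

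The deposited values are read here as log2, set for each gene against a baseline of its own, close to the middle of the 4 libraries. This scale, with a floor of 1 normalized read, was inferred from the values. The sources used here do not give the steps that led to it. On this reading the values can be compared between libraries within a gene, and not between genes, and the total depth of a library is unknown. The binary step of the stored numbers gives an estimate of a lower bound on each gene's lowest library. A gene of the next lower class can look like the higher one by chance. By this estimate the lowest library had at least 256 normalized reads for 41 members, 16 to 256 for 35, and under 16 for 5. These 5 were Rpl13, Rps10, Rps20, Rpl38 and Rpl3l. From counting error, a log2 difference between 2 libraries at 256 reads has an SD of 0.13, and at 16 reads one of 0.51, and with more reads it is smaller. Rpl38 and Rpl3l lay at the floor of 1 normalized read in 2 or more libraries, and no fold is given for them, though they stay in the counts.

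**Figure D1:**
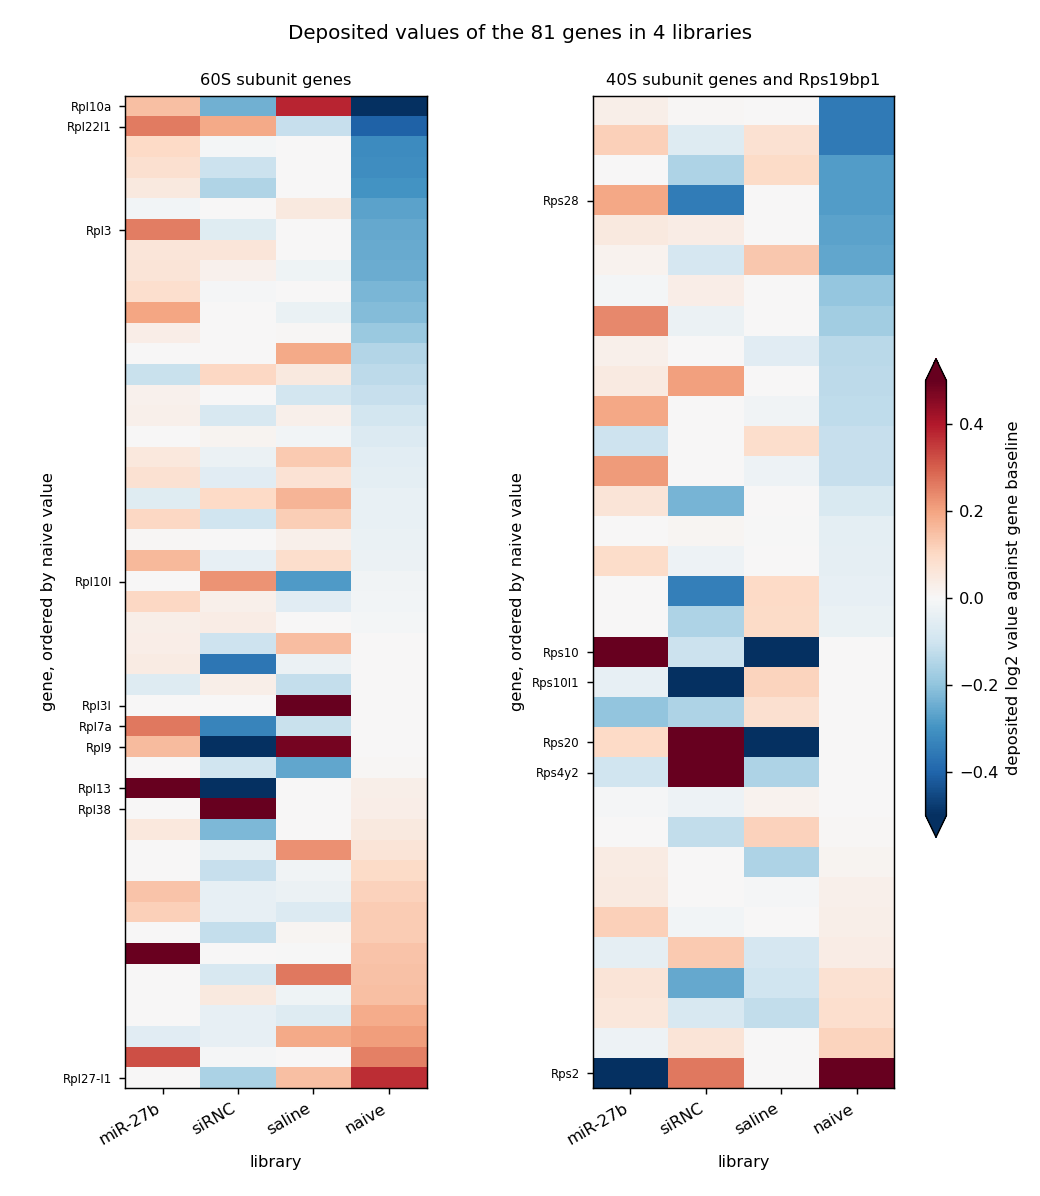
Deposited log2 value of each of the 81 genes (rows, ordered by the naive value) in the 4 libraries (columns), with 60S genes on the left and 40S genes and Rps19bp1 on the right. Names are given for genes whose highest and lowest libraries lie at least 0.5 apart. Red is above and blue below the gene's own baseline, and colours stop at 0.5 in either direction, so values beyond that, such as 3.23 for Rps2 in the naive library, look alike.

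The ribosomal protein genes differed little between the livers, and the naive liver more often held the lowest value. In the saline against the naive liver the median log2 fold over the 81 genes was 0.09, with 51 above 0, while the median over all 12874 genes with a value was 0. In the siRNC against the naive liver the median was 0.02, with 42 above 0, and in the miR-27b against the naive liver it was 0.09, with 57 above 0. Among the treated livers the median was -0.03 for siRNC against saline, 0.10 for miR-27b against siRNC and 0.04 for miR-27b against saline. In bulk tissue a change in the amount of RNA per cell and a change in the mix of cells cannot be told apart.

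Members were also counted past a fixed log2 difference of 0.32, a ratio of 5 to 4. In the saline against the naive liver 8 members (9.9%) were higher by at least that much and 3 (3.7%) lower, against 26.4% and 23.1% of all genes with a value. In the siRNC against the naive liver 6 (7.4%) were higher and 8 (9.9%) lower, against 26.1% and 23.1% of all. In the miR-27b against the naive liver 15 (18.5%) were higher and 2 (2.5%) lower, against 27.7% and 25.5%. The lead of higher over lower members was widest in this last comparison, and the counts stayed under the background in both directions. Here Rps4x lay just inside the limit, at 0.33, and Rps27 just outside it, at 0.32.

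Between the hepatectomised livers the counts were also below the background. For siRNC against saline 5 members (6.2%) were higher and 9 (11.1%) lower, against 21.1% and 20.2% of all genes. For miR-27b against siRNC 12 (14.8%) were higher and 4 (4.9%) lower, against 22.5% and 21.4%. For miR-27b against saline 7 (8.6%) were higher and 2 (2.5%) lower, against 22.9% and 19.7%.

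Differences of 2-fold or more were fewer still. For saline against naive no member was that much higher and 1, Rps2, was lower, against 8.48% and 6.6% of all genes. For siRNC against naive none was higher and 3 were lower, Rps2, Rpl9 and Rpl13, against 8.89% and 6.19%. For miR-27b against naive Rpl13 was higher and Rps2 lower, against 12.7% and 6.13%. Only 5 genes enter these counts in any comparison. For siRNC against saline Rps20 was higher and Rpl9 lower, against 4.77% and 4.02% of all genes. For miR-27b against siRNC Rpl13 and Rpl9 were higher and Rps2 lower, against 7.14% and 4.45%, and for miR-27b against saline Rps10 and Rpl13 were higher and Rps2 lower, against 6.43% and 3.75%.

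The medians of the 2 subunits lay close together. In the saline against the naive liver the 60S median was 0.11 and the 40S median 0.08. In the miR-27b against the naive liver they were 0.09 and 0.10, and in the miR-27b against the siRNC liver 0.10 and 0.11.

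**Figure D2:**
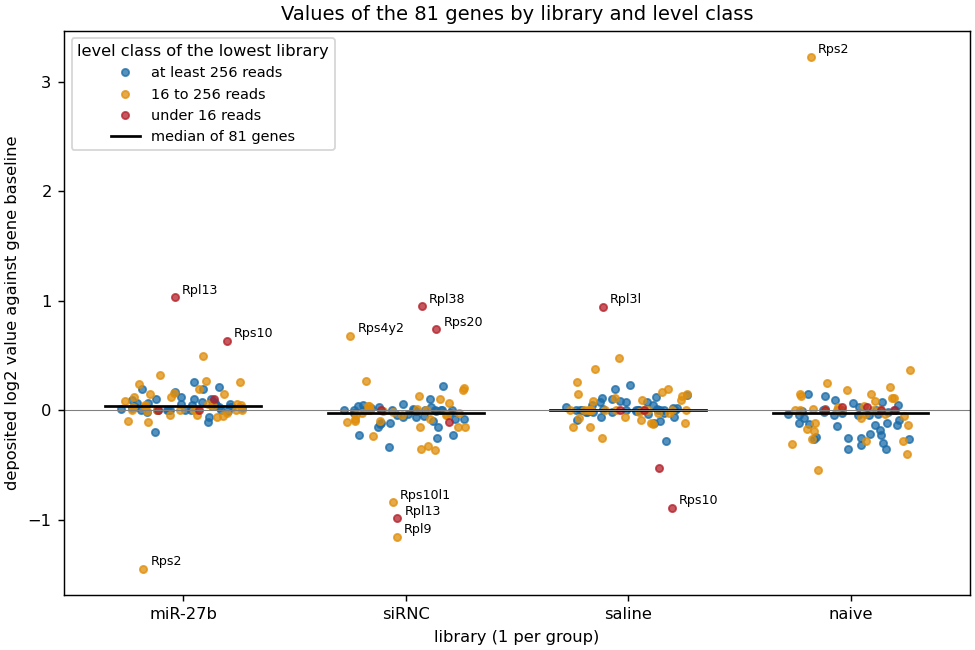
Deposited log2 value against the gene's baseline (vertical axis) for the 81 genes in each library (horizontal axis, 1 library per group), coloured by the level class of the gene's lowest library. Black lines mark the median of the 81 genes and genes at least 0.6 from their baseline are named, none of which is in the class of at least 256 reads.

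Ranking the 4 libraries within each gene showed which liver stood apart. The naive liver was below the other 3 for 34 members (42%), against 27.8% of all genes with a value, and above the other 3 for 12 (14.8%), against 30.6%. The miR-27b liver was above the other 3 for 36 members (44.4%), against 28% of all, and below them for 5 (6.17%), against 22.6%. The siRNC liver was lowest for 25 members (30.9%), against 20.4%, and highest for 12 (14.8%), against 21%. The saline liver was highest for 21 (25.9%) and lowest for 15 (18.5%), against 20.5% and 20.1%.

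The same order appeared among the 41 members with at least 256 reads in their lowest library. Of these, 23 (56.1%) had their lowest value in the naive liver, against 29.4% of all 2528 genes of that class, and 4 (9.76%) had their highest value there, against 34.9%. The miR-27b liver was highest for 22 (53.7%), against 26.2%, and lowest for 1, Rps16, against 23.8%. The siRNC liver was lowest for 12 (29.3%), against 24.3%, and highest for 5 (12.2%), against 19.2%, and the saline liver lowest for 5 (12.2%), against 22.5%, and highest for 10 (24.4%), against 19.7%. The gaps were small: where the naive liver was lowest, its distance to the next library had a median of 0.15 in these 23 members, and where the miR-27b liver was highest the median gap was 0.05 in these 22. The widest of these gaps were 0.35 below for Rps3a and 0.25 above for Rpl3. The median fold of the 41 was 0.11 for saline, 0.05 for siRNC and 0.14 for miR-27b against naive, while the other 2487 genes of the class had a median of -0.03 in each.

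Past a log2 difference of 0.32 within this class, 4 of the 41 were higher and none lower for saline against naive, against 16.6% and 19.2% of the class. For siRNC against naive 1 was higher, Rps3a, and 1 lower, Rps21, against 16.1% and 20.3%. For miR-27b against naive 7 were higher and none lower, against 19.3% and 22.8%. Rpl3, Rplp0, Rps3a and Rps4x were among these 7. For siRNC against saline 1 was higher, Rpl10l, and 1 lower, against 12.8% and 13%. For miR-27b against siRNC 2 were higher, Rps21 among them, and none lower, against 13.9% and 12.4%, and for miR-27b against saline there were none in either direction, against 14% and 11%.

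Among 40S proteins, Rps3a, which lies on the platform near the mRNA exit, was the member higher than naive by at least 0.32 in all 3 hepatectomised livers. It was at 0.03 in the miR-27b, 0.00 in the siRNC and 0 in the saline library, and at -0.35 in the naive library. The 3 hepatectomised livers lay within 0.03 of each other, and the naive liver stood below them without overlap. It was 1 of 81 members (1.23%) with that pattern, against 13.4% of all genes with a value. Rps3, which lines the entry of the mRNA channel and also acts in DNA repair, was at 0.02, -0.08 and 0.14 in the miR-27b, siRNC and saline libraries and at -0.26 in the naive library. Its naive value was the lowest, and the saline and miR-27b values lay above the siRNC value. Rps6, the substrate of the S6 kinases below mTORC1, was near level, at 0.09 in the miR-27b, -0.03 in the siRNC and 0 in the saline library, against -0.05 in the naive library.

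Rpsa, the laminin receptor precursor that joins the 40S subunit, had its low value elsewhere. It was at 0.07 in the miR-27b, -0.23 in the siRNC, 0 in the saline and -0.08 in the naive library. The siRNC liver was the lowest for this gene. Rps28 had 0.19 in the miR-27b, -0.35 in the siRNC and 0 in the saline library, against -0.28 in the naive library, so the siRNC and naive livers were both low.

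Genes of the stalk, which recruits elongation factors to the 60S subunit, did not share 1 order. Rplp0, the stalk's anchor, was at 0.05 in the miR-27b, -0.15 in the siRNC and 0 in the saline library, against -0.30 in the naive library. Rplp1 was at 0.05, -0.23 and 0 in the miR-27b, siRNC and saline libraries, against 0.05 in the naive library. Rplp2 was at 0.12, -0.04 and -0.07, against 0.13 in the naive library. The naive liver was thus lowest for Rplp0, near the top for Rplp1 and highest for Rplp2. Rpl12, at the base of the stalk, was at 0.03 in the miR-27b, -0.10 in the siRNC, 0.15 in the saline and 0 in the naive library.

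Rpl5 and Rpl11, which with the 5S ribosomal RNA bind and inhibit MDM2 when ribosome assembly is disturbed, were both lowest in the naive liver. Rpl11 was at 0.10 in the miR-27b, -0.01 in the siRNC and 0 in the saline library, against -0.32 in the naive library. Rpl5 was at 0.06, 0.02 and -0.02 in the miR-27b, siRNC and saline libraries, against -0.25 in the naive library. In each gene the hepatectomised livers lay close together and above the naive liver. Rpl23, another protein that binds MDM2, did not share this order, with 0.11 in the miR-27b, 0.03 in the siRNC, -0.06 in the saline and -0.01 in the naive library. Of 8 genes of p53 and its response, 2, 0 and 1 were higher than naive by at least 0.32 in the miR-27b, siRNC and saline livers, and 2, 4 and 3 lower, with medians of -0.06, -0.27 and -0.09. Among all genes with a value 27.7%, 26.1% and 26.4% were higher by that much, and 25.5%, 23.1% and 23.1% lower, in that order. The shares of the 8 that were higher lay under these in each liver. The share lower was near that of all genes in the miR-27b liver and above it in the siRNC and saline livers. These differences in share were not tested. Mdm2 itself was among the lower ones in all 3, at -0.62, -0.65 and -0.70, while Bbc3, which encodes the cell death protein PUMA, was at 0.49, 0.30 and 0.31 against naive. Phlda3 was at -1.68, -0.97 and -1.49 in the same order, and Cdkn1a at -0.16, -2.94 and -0.64.

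Rpl3, which reaches toward the peptidyl transferase centre, had the widest range of the members of the highest level class. It was at 0.25 in the miR-27b, -0.06 in the siRNC and 0 in the saline library, against -0.26 in the naive library. The miR-27b liver was highest and the naive liver lowest, 0.51 apart. Rpl7 was at 0.20, 0 and -0.03 in the miR-27b, siRNC and saline libraries, against -0.22 in the naive library. Rpl10a, whose protein is present in only part of the ribosomes in mouse cells, was at 0.15 in the miR-27b, -0.24 in the siRNC and 0.38 in the saline library, against -0.55 in the naive library. Its saline and naive values lay 0.93 apart.

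Among 60S genes highest in the miR-27b liver, the order of the other 3 livers varied. Rpl36a, close to the tRNA exit site, was at 0.49 in the miR-27b, 0 in the siRNC, -0.0004 in the saline and 0.14 in the naive library. Rpl7a was at 0.26 in the miR-27b, -0.33 in the siRNC, -0.11 in the saline and 0 in the naive library. Rpl28 was at 0.32 and 0.25 in the miR-27b and naive libraries and at -0.0045 and 0 in the siRNC and saline libraries. Rpl28 thus separated the livers in another way from Rpl36a, with the naive liver beside the miR-27b liver.

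Second copies and their main copies ranked the livers differently. Rpl22 was at 0.04 in the miR-27b, -0.36 in the siRNC, -0.03 in the saline and 0 in the naive library. Rpl22l1, which in mouse is held down by the Rpl22 protein, was at 0.26 in the miR-27b, 0.19 in the siRNC and -0.12 in the saline library, against -0.40 in the naive library. In the siRNC liver, against naive, Rpl22 was lower by 0.36 and Rpl22l1 higher by 0.59, and in the miR-27b liver Rpl22 differed by 0.04 and Rpl22l1 by 0.66. Rps27 was at 0.19 in the miR-27b, 0 in the siRNC and -0.02 in the saline library, against -0.13 in the naive library. Rps27l, a target of p53 in human cells, was at 0.04, 0.20 and 0 in the same libraries, against -0.13 in the naive library. The naive liver was lowest for both, and the highest liver was miR-27b for Rps27 and siRNC for Rps27l.

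Rpl7l1, whose yeast relative is an assembly factor of the 60S subunit, ran against Rpl7, at -0.06 in the miR-27b, -0.04 in the siRNC and 0.19 in the saline library, against 0.21 in the naive library. Rpl10, among the last proteins to join the 60S subunit, stayed within 0.14, at 0.02 in the miR-27b, 0 in the siRNC, -0.09 in the saline and -0.12 in the naive library. Its retrogene Rpl10l, which in mouse takes over in male meiosis, was at 0 in the miR-27b, 0.23 in the siRNC, -0.28 in the saline and -0.02 in the naive library. Rps4x was at 0.21 in the miR-27b, 0 in the siRNC, -0.03 in the saline and -0.11 in the naive library, and Rps4y2 at -0.10, 0.68, -0.15 and 0 in the same order. Rps4y2 was thus high in the siRNC liver alone. Rps10l1 was low there alone, at -0.04 in the miR-27b, -0.84 in the siRNC, 0.11 in the saline and 0 in the naive library. Rpl27-l1 was at 0 in the miR-27b, -0.16 in the siRNC and 0.15 in the saline library, against 0.37 in the naive library. Reads of such copies may fit more than 1 row, and the sources used here do not say how they were assigned, so single values of these pairs are uncertain.

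The 5 members with a range of at least 2-fold over the 4 libraries (6.17%, against 31.2% of all genes with a value) stood outside the common order. Rps2, near the entry of the mRNA channel, was at -1.45 in the miR-27b, 0.27 in the siRNC and 0 in the saline library, against 3.23 in the naive library. Its highest value was in the naive liver, where 34 members had their lowest, and it was the 1 member (1.23%) lower than naive by at least 0.32 in all 3 hepatectomised livers, against 10.2% of all genes. The row of its pseudogene Rps2-ps6, looked up after these values were seen, had the same order, at -2.63 in the miR-27b, 0.50 in the siRNC and 0 in the saline library, against 3.39 in the naive library. The part of shared reads in the values of both rows was not tested.

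Rpl9 was at 0.16 in the miR-27b, -1.16 in the siRNC, 0.48 in the saline and 0 in the naive library, so that it was low in the siRNC liver alone. The remaining 3 rest on few reads. Rpl13 was at 1.03 in the miR-27b, -0.99 in the siRNC, 0 in the saline and 0.03 in the naive library, with 4 to 16 reads in its lowest library. Rps10 was at 0.64, -0.11, -0.89 and 0 in the same order, and Rps20 at 0.10, 0.74, -0.53 and 0, both with 2 to 4 reads in the lowest library. Rps10 and Rps20 neighbour each other in the head of the 40S subunit and are both marked with ubiquitin on collided ribosomes. Their lowest value was in the saline liver for both, while the highest was in the miR-27b liver for Rps10 and in the siRNC liver for Rps20. Main copies of ribosomal protein genes at so few reads stand beside family members of at least 256, and 34 of 1569 other rows described as a ribosomal protein also held values. The part of reads given to such rows was not tested.

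At the other end, Rps9 and Rps23 were nearly level. Rps9 was at -0.01 in the miR-27b, -0.03 in the siRNC, 0.02 in the saline and 0 in the naive library. Rps23, at the decoding centre, was at 0.05, 0, -0.01 and 0.03 in the same order. Over all members the distance between the highest and the lowest library was at least 0.32 for 34 (42%), against 79.8% of all genes with a value. In the class of at least 256 reads it was so for 12 of 41 members (29.3%), against 66.4% of all genes of the class, and the median range was 0.26 against 0.43. None of these 41 reached a 2-fold range.

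**Figure D3:**
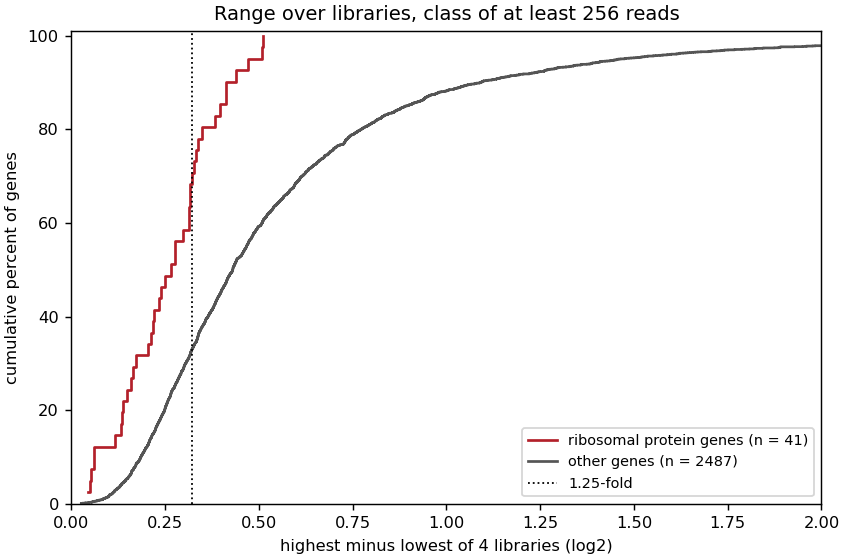
Cumulative percent of genes (vertical axis) by the log2 distance between the highest and the lowest of the 4 libraries (horizontal axis), for the 41 ribosomal protein genes and 2487 other genes of the class of at least 256 reads. The dotted line marks 0.32, a ratio of 5 to 4. The ribosomal protein genes end at 0.51, while other genes reach 5.60, beyond the end of the axis at 2.

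Members with a C and at least 4 pyrimidines at the annotated start had median folds close to those of members without. In the saline against the naive liver the median fold was 0.02 over the 19 with the motif and 0.08 over the 42 without it. In the miR-27b against the naive liver it was 0.07 and 0.12, and in the miR-27b against the siRNC liver 0.12 and 0.10. Members scored as without the motif include some with long pyrimidine runs near the annotated start, such as Rps23 with 21 bases and Rpl27a with 20. The split therefore cannot separate members with TOP mRNAs from those without, and nothing is concluded from it.

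Ribosomal proteins can also stand under other symbols. Gnb2l1, the 40S scaffold protein also called RACK1, had the common order, at 0.19 in the miR-27b, -0.04 in the siRNC and 0.02 in the saline library, against -0.21 in the naive library. Fau, a fusion with a 40S protein, was within 0.15 over the 4 libraries.

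Genes of elongation and others known for TOP mRNAs were set beside the ribosomal proteins, and 18 of their 21 symbols had values. Their medians against naive were 0.32 for miR-27b, 0.17 for siRNC and 0.27 for saline. Higher by at least 0.32 were 9 (50%), 3 (16.7%) and 7 (38.9%) of the 18 in that order, against 27.7%, 26.1% and 26.4% of all genes with a value, so the siRNC share was under the background. None was lower by that much. Pabpc1, the poly(A)-binding protein, was higher than naive by 0.53 in the miR-27b, 0.42 in the siRNC and 0.43 in the saline liver, and the elongation factor Eef2 by 0.37, 0.16 and 0.26. Eef1a1 was near level, at -0.03, -0.03 and 0.02. The medians against naive were above 0, as those of the ribosomal proteins were, and larger.

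Initiation factors and assembly factors ranked the livers in another way. Of 25 initiation factors with values, 5, 4 and 6 were higher than naive by at least 0.32 in the miR-27b, siRNC and saline livers, and 3, 0 and 0 lower. The shares higher, 20%, 16% and 24%, were all under those of all genes. Eif1, which guards start codon choice, was higher than naive by 0.58, 0.67 and 0.44. Between the miR-27b and the saline liver 9 of the 25 (36%) were lower and none higher, against 19.7% and 22.9% of all genes, with a median of -0.24. Eif2b2, a subunit of the exchange factor for eIF2, was at -0.43 in the miR-27b library, against 0.26 in the saline library.

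Of 33 factors of ribosome assembly and rRNA transcription, 26 (78.8%) had their highest value in the saline liver, against 20.5% of all genes. In the saline against the naive liver 16 (48.5%) were higher by at least 0.32 and none lower, against 26.4% and 23.1% of all genes, with a median of 0.29. Rrs1, which loads the 5S particle onto the pre-60S subunit, was higher by 1.32, Nip7 by 0.94 and the methyltransferase fibrillarin, Fbl, by 0.60. Against naive the siRNC liver had 6 (18.2%) higher and 5 (15.2%) lower, both under the 26.1% and 23.1% of all genes. The miR-27b liver had 5 (15.2%) higher and 11 (33.3%) lower, against 27.7% and 25.5%. In the miR-27b against the saline liver 21 (63.6%) were lower and 1, Tsr1, was higher, against 19.7% and 22.9% of all genes, with a median of -0.51, while the ribosomal protein genes had a median of 0.04 in the same comparison. In the siRNC against the saline liver 17 (51.5%) were lower and none higher, against 20.2% and 21.1%, with a median of -0.36.

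Mitochondrial ribosomal proteins, 69 genes, had medians between -0.03 and 0.04 in the 6 comparisons, with 6 (8.7%) higher and 9 (13%) lower in the saline against the naive liver, under the 26.4% and 23.1% of all genes, as the counts of the cytosolic ones were. Of 19 genes of mTORC1, S6 kinase and MYC, Myc, a driver of ribosome production, was higher than naive by 1.32 in the miR-27b, 0.96 in the siRNC and 1.08 in the saline liver. In the same comparisons the mTORC1 inhibitor Sesn2 was lower, at -0.83, -1.45 and -1.49. Of the 19, 2 (10.5%), 1 (5.3%) and 2 (10.5%) were higher by at least 0.32, under the 27.7%, 26.1% and 26.4% of all genes. Lower were 5 (26.3%) in each, near the 25.5%, 23.1% and 23.1% of all genes. The medians of the 19 were -0.11, -0.06 and -0.04.

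**Figure D4:**
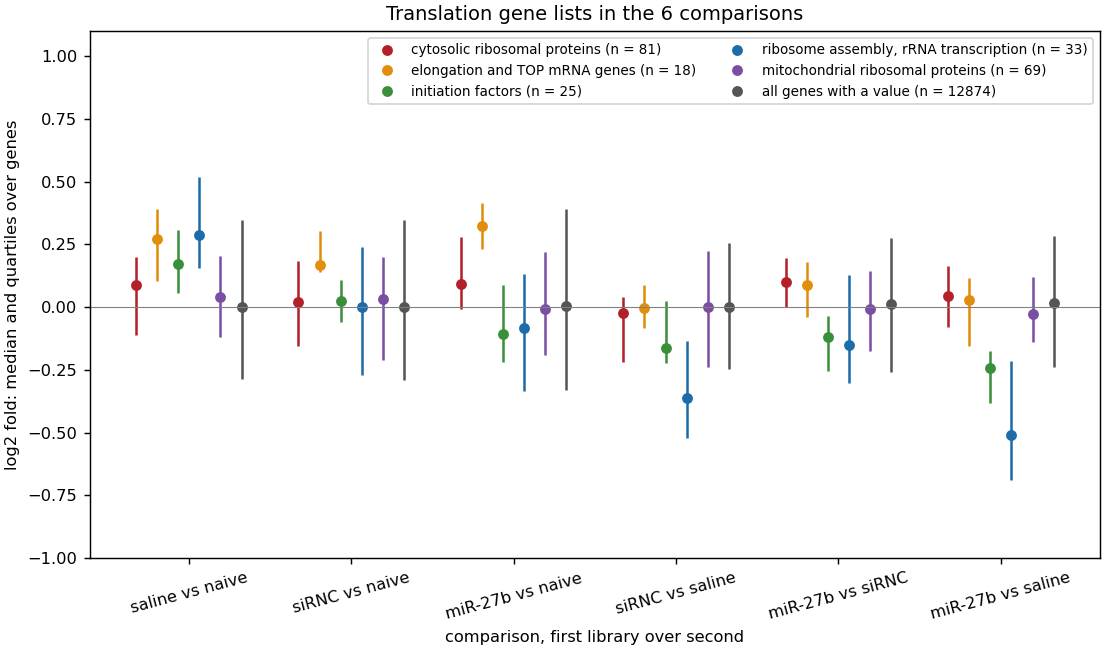
Median log2 fold (points) and quartiles over genes (lines) of 5 gene lists and of all genes with a value, in the 6 comparisons, each the first library over the second. Lines show the spread over genes and not an error. Cytosolic ribosomal proteins stay within 0.10 of 0, while ribosome assembly and rRNA transcription reaches -0.51 for miR-27b against saline.

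Markers of other cells differed along with the naive liver. Hepatocyte markers, which define the labelled tissue, were in the table for 5 of 5 genes, with medians against naive of 0.08 in the miR-27b, -0.08 in the siRNC and -0.03 in the saline liver. In each liver 1 of the 5 (20%), Tf, was higher by at least 0.32, at 0.81, 0.47 and 0.41 in that order. Lower by that much was also 1 (20%), Ttr, at -0.61, -0.40 and -0.44. Both shares were under those of all genes, which are given below. Of 7 macrophage and Kupffer cell markers, 6 were higher than naive by at least 0.32 in each hepatectomised liver, against 27.7%, 26.1% and 26.4% of all genes in the miR-27b, siRNC and saline livers, with medians of 1.49, 1.26 and 1.28 in the same order. All 7 erythroid markers were higher in each, with medians of 2.03, 1.96 and 2.34, and 4 of 5 endothelial markers, with medians of 0.78, 0.52 and 0.77. Of 5 markers of dividing cells, 4 were lower in the miR-27b liver and all 5 in the siRNC and saline livers. Among all genes 25.5%, 23.1% and 23.1% were lower than naive by at least 0.32, in that order. The medians of these markers were -1.08, -2.77 and -2.20. Of 6 stellate cell and fibroblast markers 5 were higher by at least 0.32 in the siRNC than in the saline liver, against 21.1% of all genes. Lum, at 4.82, and Col1a1, at 2.75, led them. Neutrophil markers S100a8 and S100a9 were higher than naive by 4.13 and 5.19 in the miR-27b liver, by 2.21 and 3.96 in the siRNC liver and by 2.33 and 2.79 in the saline liver, with Elane and Mpo listed at 0. Lum, S100a8, S100a9, Ccnb1, Cdc20, Cdk1, Top2a and the erythroid marker Slc4a1 had 4 to 16 reads in their lowest library, so their folds rest on few reads. The erythroid markers Ahsp and Epb42 had fewer still, 2 to 4. Cxcr2, the other neutrophil marker with values, lay at the floor in the saline and naive libraries. Most markers of T, NK and B cells lay at or near the floor, with Klrb1, Cd79a and Igj listed at 0. The table holds no levels, so these lists cannot be summed within a library. Their part in the values of the ribosomal protein genes was not tested.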

How the data were processed

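Per the labels' protocols, poly(A) mRNA of rat liver was prepared with TruSeq kits and sequenced on an Illumina MiSeq, 1 library per group. The deposited table holds values that its header calls normalized, and they were read as log2 from the values themselves. Per the submitters' processing notes, DESeq and the build rn5 were used. Not given in the sources used here are the aligner, the counting method and any version. In 77.3% of 12874 rows with a value, at least 1 library is at exactly 0, so values are differences within a gene, and 18583 rows are at 0 throughout. Columns were matched to samples by title, and groups were taken from the source labels.

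Log2 folds are differences of deposited values, computed with Python 3.11.15, pandas 2.3.3 and numpy 2.4.6, with figures from matplotlib 3.10.9. No pseudocount was added and no test was made. Level classes come from the binary step of the stored 32-bit values. A gene of the next lower class looks like the higher one by chance in 12.5% of cases with 3 values other than 0. Rows with 2 or more libraries tied at their lowest value, 1185 in all, were placed at the floor of 1 read. The procedure was run on simulated data made on the same assumed scale, so the run could not check that scale. Members past a ratio of 5 to 4 and past 2-fold were counted beside all rows with a value.

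Named genes are the 3 highest and 3 lowest members per comparison, every member 2-fold apart, the stalk genes, Rpsa, Rps6, Rpl5, Rpl11, Rpl23, and second copies with their main copies. Some genes of this rule are not reported here. Other named genes were picked after their values were seen. The members, lists and tests were chosen with earlier results of these data known. Start sites come from the first RefSeq entry of each gene on GRCr8.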

Additional observations from a re-analysis of the deposited data

How the results depend on the processing

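With 1 library per group, leaving out a replicate could not be done. No paired analysis was possible because each group has 1 library. Of 114 alternative values, 91 stayed near the main value (counts within 1.5 times, medians within the interval of the median over genes), 22 moved and 1 changed sign: the siRNC against naive fold of members was -0.0271 as a mean and 0.02 as a median, with Rps2 at -2.97; the cause was not tested. Centring libraries on all other genes shifted nothing, since the per-gene baseline sets those medians to 0. Values under this setting are among the 91 and could not have moved. Centring instead on other genes of at least 256 reads, an alternative chosen after seeing the data, gave 10 members higher by at least 0.32 for siRNC against naive in place of 6, 12 for saline against naive in place of 8 and 20 for miR-27b against naive in place of 15. The other counts differed by at most 2.

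The other moved counts came with fewer genes counted: 76 with at least 16 reads, 73 without second copies and 41 with at least 256 reads. They did not all fall in step with the number of genes. Of the 5 members under 16 reads, 3 were higher and 2 lower by at least 0.32 for siRNC against saline. With at least 16 reads, 1 member was lower for saline against naive, 2 were higher for siRNC against saline, 2 lower for miR-27b against siRNC, and 4 higher and 1 lower for miR-27b against saline. Without second copies, 3 were higher for siRNC against naive, 1 lower for miR-27b against naive, 3 higher for siRNC against saline and 1 lower for miR-27b against saline. With at least 256 reads, also chosen after seeing the data, higher and lower counts were 4 and 0 for saline, 1 and 1 for siRNC and 7 and 0 for miR-27b against naive, 1 and 1 for siRNC against saline, 2 and 0 for miR-27b against siRNC, and 0 and 0 for miR-27b against saline. Leaving out Rps19bp1 could change no count, as all its folds lay under 0.32. It shifted the medians by less than 0.01, the most for saline against naive, to 0.098. Depth limits single members: at 16 reads in each library counting error alone has an SD of 0.51.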
